A study of Rattus norvegicus with 8 samples.

Results

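The genes described here encode the enzymes that write and erase chemical marks on histones and on DNA, together with the core partners Eed, Suz12 and Uhrf1. They were chosen by symbol: every Hdac, Sirt, Prmt, Kdm, Kmt, Kat, Dnmt and Tet gene with a number in its name, plus Ezh1, Ezh2, Eed, Suz12, Crebbp, Ep300 and Uhrf1. Each gene was represented by the brightest probe set that carried its symbol and no other. This gave 66 of the 14217 genes measured, read by 112 of the 31042 probe sets. Sirt1, Dnmt3l, Hdac9, Kat8, Kdm4a, Kdm5d, Kdm6a and Prmt1 had no such probe set and were not analysed here.

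The study measured RNA from whole testes of male Fischer 344 rat fetuses at gestational day 20 on Affymetrix rat expression arrays. In the DBP group (4 arrays), dams were gavaged once a day over gestational days 12 to 20 with dibutyl phthalate in corn oil at 50 mg per kg of body weight. Dibutyl phthalate is a plasticizer that in larger amounts reduces testosterone synthesis by fetal Leydig cells. In the vehicle group (4 arrays), dams received corn oil in the same volume, 1 ml per kg of body weight, and in both groups testes were taken 6 h after the last dose. Whether samples came from separate dams or litters is not stated in the labels, so a p-value reflects no more than the spread among these arrays, whose small number limits the precision. In whole tissue, fewer cells of a type and less RNA per cell cannot be told apart.

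Histone acetyltransferases and lysine or arginine methyltransferases add marks that other proteins read, and deacetylases and demethylases take them off. Polycomb repressive complex 2 methylates histone H3 at silenced genes, DNA methyltransferases methylate cytosine at CG dinucleotides, and TET dioxygenases oxidise that methyl group. In mice, male germ cells lay down new DNA methylation in the fetal testis shortly before birth, and this needs Dnmt3a.

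Promoters were compared because cytosines followed by guanine are the bases that Dnmt1, Dnmt3a, Dnmt3b and the TET enzymes act on. RefSeq promoters (build GRCr8, the 250 bases before the start of the gene) were found for 55 of the 66 members. The member promoters held a median of 16 CG dinucleotides, against 5 over all 33469 promoters of that length. The GC box GGGCGG, on either strand, was present in 31 of the 55 member promoters (56.4%) and in 30.5% of all promoters, and a GC box always holds a CG. The 33469 promoters include those of genes that the arrays did not measure. Members were not compared with measured or bright genes alone, so neither contrast can be called particular to chromatin enzymes. The sequences of Prmt8, the member that changed, and of Kdm7a and Kmt2c are shown 5′ to 3′ with every CG in capitals. Kdm7a and Kmt2c are among the members that passed the test only under some alternative settings.
Prmt8, chr4:162303346-162303595, minus strand: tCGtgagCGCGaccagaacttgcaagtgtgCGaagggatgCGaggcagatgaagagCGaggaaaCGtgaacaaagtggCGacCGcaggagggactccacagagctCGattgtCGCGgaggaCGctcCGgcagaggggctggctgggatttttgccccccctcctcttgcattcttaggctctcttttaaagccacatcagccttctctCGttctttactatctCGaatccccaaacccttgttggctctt
Kdm7a, chr4:68992980-68993229, minus strand: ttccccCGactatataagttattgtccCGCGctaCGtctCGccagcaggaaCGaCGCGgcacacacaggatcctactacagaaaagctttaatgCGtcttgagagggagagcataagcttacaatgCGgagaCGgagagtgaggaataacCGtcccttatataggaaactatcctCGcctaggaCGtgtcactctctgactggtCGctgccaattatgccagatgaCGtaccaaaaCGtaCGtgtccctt
Kmt2c, chr4:10354227-10354476, plus strand: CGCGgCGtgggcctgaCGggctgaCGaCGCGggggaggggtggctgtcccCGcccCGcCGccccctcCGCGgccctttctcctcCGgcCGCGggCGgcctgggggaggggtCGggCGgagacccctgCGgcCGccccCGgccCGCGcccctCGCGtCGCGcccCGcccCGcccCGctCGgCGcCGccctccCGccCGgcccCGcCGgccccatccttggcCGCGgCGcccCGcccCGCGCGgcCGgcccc
Kmt2c had 45 CG dinucleotides and 10 GC boxes, more CG than 99.6% of all promoters, while Prmt8 had 16 and Kdm7a 18, more than 76.2% and 79.9%. Promoters found for the other members that passed only under some settings held from 1 CG (Tet1) to 18 (Dnmt3a). Tet1 thus had more CG than 7.83% of all promoters, and Tet3, with 3, more than 28.6%. These are counts of letters in a window, and no methylation was measured.

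Array medians lay between 6.08 and 6.13 on the log2 scale, and pairs of arrays correlated at 0.991 to 0.998 across probe sets. DBP replicates 3 and 4 had low signal in the spike-ins, control transcripts put into each sample for the labelling reaction: the mean log2 signal of 24 such probe sets was 4.84 and 4.79 there, against 7.17 and 6.68 in DBP replicates 1 and 2 and 6.46 to 6.79 in the vehicle arrays. RNA integrity numbers were 8.6 to 8.8 in DBP samples and 8.7 to 8.8 in vehicle samples. Markers of testis cells were present in both groups, the best known of them bright: Amh, the Sertoli cell hormone, averaged 12.62 in DBP and 12.67 in vehicle samples, and Insl3, a Leydig cell hormone, 11.52 in DBP and 11.86 in vehicle samples. The dimmest measured markers of these cell types were Gata1 (Sertoli, 5.28 over all arrays) and Vsnl1 (Leydig, 4.81). Because of the spike-ins, values for members that differ within the DBP group are also given for DBP replicates 1 and 2 and for replicates 3 and 4 apart.

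At 50 mg/kg, 1 chromatin enzyme transcript passed the test between DBP and vehicle testes, and for most others the measured change was small. Prmt8, a membrane-anchored arginine methyltransferase known mainly from neurons, was that 1 of 66 members, and it was lower in DBP samples. The test was limma's linear model with empirical Bayes moderation, 2-sided, with Benjamini-Hochberg adjustment over all 31042 probe sets and a threshold of 0.05. At that threshold, 1.22% of all genes passed, 0.598% higher and 0.626% lower in DBP samples, so 1 of 66 is close to the background. The other 65 members had adjusted p-values of 0.0793 and upward, and their log2 changes ran from -0.44 (Kdm6b) to 0.40 (Kdm4d). The call count depended on 1 library: without DBP replicate 2 the members called numbered 2, Prmt8 and Tet3.

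The values of most members lay slightly below 0. The log2 change, DBP minus vehicle, was below 0 for 49 of 66 members (74.2%), against 42.7% of all genes, and its median was -0.07 for members and 0.02 for all genes. Members are bright on these arrays, and among genes brighter than the median probe set 46 of 59 members (78.0%) were below 0, against 52.3% of 9556 genes. By DBP array, the median difference of the members from the vehicle mean was -0.07, -0.01, -0.14 and -0.09 in DBP replicates 1 to 4. It was thus smallest in replicate 2 and largest in replicate 3, and the arrays did not share 1 size of shift. At an unadjusted p under 0.05, 14 members were lower (21.2%) and 5 higher (7.58%). Of all genes 19.1% had such a p, 7.84% lower and 11.3% higher. Scaling moved these counts in the same direction for members and for all genes. After arrays were shifted to the same median, 9 members were lower and 7 higher, and of all genes 5.75% were lower and 14.9% higher. After quantile normalization 10 members were lower and 6 higher, and of all genes 6.47% were lower and 12.0% higher. Values below 0 were found for 44 members (66.7%) and 35.7% of all genes under the median shift, and for 42 members (63.6%) and 40.3% of all genes under quantile normalization. The median change was -0.04 for members under either scaling, against 0.05 for all genes under the median shift and 0.03 under quantile normalization.

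Groups did not overlap for 9 of 66 members and for 12.9% of all genes. All DBP arrays lay above all vehicle arrays for Kdm7a, Sirt2 and Sirt6 (4.55% of members, against 7.31% of all genes). All DBP arrays lay below all vehicle arrays for Prmt8, Kmt2c, Kdm3b, Tet3, Kmt2e and Kdm4c (9.09%, against 5.56% of all genes). The 95% confidence interval of the change stayed within 1.5-fold in both directions for 62 of 66 members, and for 96.4% of all genes. The exceptions were Prmt8, Kdm6b, Kdm4d and Dnmt3a. The plot of all members by role shows this narrow band around 0.

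**Figure D1:**
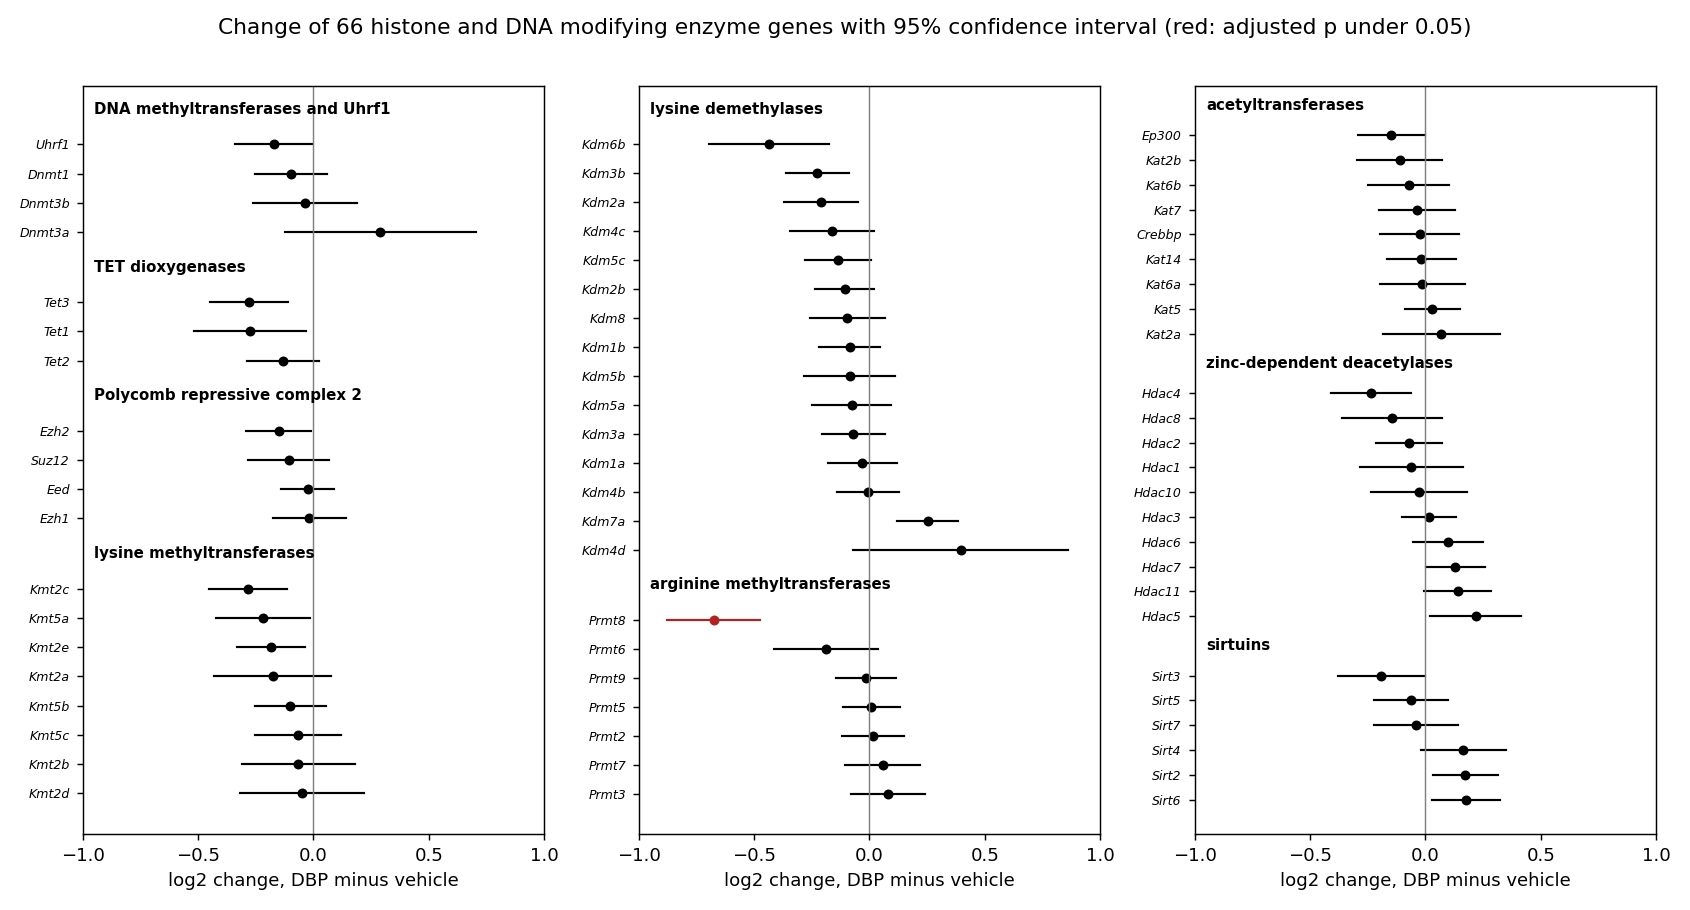
Log2 change, DBP minus vehicle, of the 66 members by role, with points for the estimate and bars for the 95% confidence interval of the limma model (4 arrays per group). Prmt8, at -0.68, is the member past the threshold, and most other intervals lie within 1.5-fold of no change.

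Arginine methyltransferases were represented by 7 genes, of which Prmt8 fell and 0 rose. Prmt8 had log2 signals of 4.38, 4.55, 4.30 and 4.56 in DBP samples and of 5.13, 4.98, 5.34 and 5.04 in vehicle samples. Every DBP array was below every vehicle array, and both pairs of DBP arrays gave similar values: the change was -0.66 for DBP replicates 1 and 2 and -0.69 for replicates 3 and 4. Prmt8 thus fell by 0.68 on the log2 scale (SE 0.0912, 95% interval -0.88 to -0.47, 1.60-fold lower, limma adjusted p = 0.00895). It is read by 1 dim probe set, with 32.8% of probe sets dimmer, and the call was lost with unmoderated t statistics (adjusted p = 0.100). Of the others, Prmt5, the main enzyme for symmetric arginine methylation and a partner in mouse germ cell development, had a change of 0.01. Prmt6 had the next lowest value, -0.19, and Prmt2, Prmt3, Prmt7 and Prmt9 lay between -0.02 and 0.08.

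Lysine demethylases formed the largest role, with 15 genes. None passed the test, 13 had values below 0 (86.7%), and the median was -0.09. Of all genes 42.7% were below 0, and of genes brighter than the median probe set 52.3%. By DBP array, the median difference of the demethylases from the vehicle mean was -0.08, -0.02, -0.18 and -0.09 in replicates 1 to 4. Kdm7a, which removes methyl groups tied to silent chromatin, had the smallest p among members that did not pass. Its signals were 8.36, 8.40, 8.23 and 8.39 in DBP samples and 8.13, 8.07, 8.13 and 8.04 in vehicle samples, with no overlap. The change was 0.25 (SE 0.0596, interval 0.12 to 0.38, limma adjusted p = 0.0793), and it passed with quantile normalization (0.29, adjusted p = 0.0419) and when dim probe sets were left out (adjusted p = 0.0478).

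Kdm6b, which removes the methyl mark that Polycomb repressive complex 2 places, had signals of 8.21, 8.15, 8.13 and 8.44 in DBP samples and 8.56, 8.93, 8.79 and 8.39 in vehicle samples. DBP replicate 4 and vehicle replicate 4 crossed, so the groups overlapped despite a change of -0.44 (interval -0.69 to -0.18, limma adjusted p = 0.111). Kdm3b, a demethylase of a heterochromatin mark on histone H3, had 8.78, 8.86, 8.68 and 8.88 in DBP samples and 9.01, 9.08, 9.01 and 9.00 in vehicle samples. Its groups were separate, with a change of -0.23 (limma adjusted p = 0.115). Kdm2a, a demethylase that binds unmethylated CG islands, had 8.81, 8.75, 8.63 and 8.89 in DBP samples and 8.89, 8.97, 8.95 and 9.11 in vehicle samples. The highest DBP array equalled the lowest vehicle array (change -0.21, limma adjusted p = 0.185). Kdm3a, which in mice activates Sry in the early gonad, had a change of -0.07, and Kdm1a, the LSD1 demethylase of the CoREST complex, -0.03. The Kdm5 enzymes, which erase the promoter methyl mark that Kmt2 enzymes write, had -0.08 (Kdm5a), -0.09 (Kdm5b) and -0.14 (Kdm5c). Kdm4b (-0.01), Kdm2b (-0.11), Kdm8 (-0.10) and Kdm1b (-0.09) completed the demethylases with intervals that included 0, and Kdm4c (-0.16) was read by a dim probe set with a mean of 3.08.

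**Figure D2:**
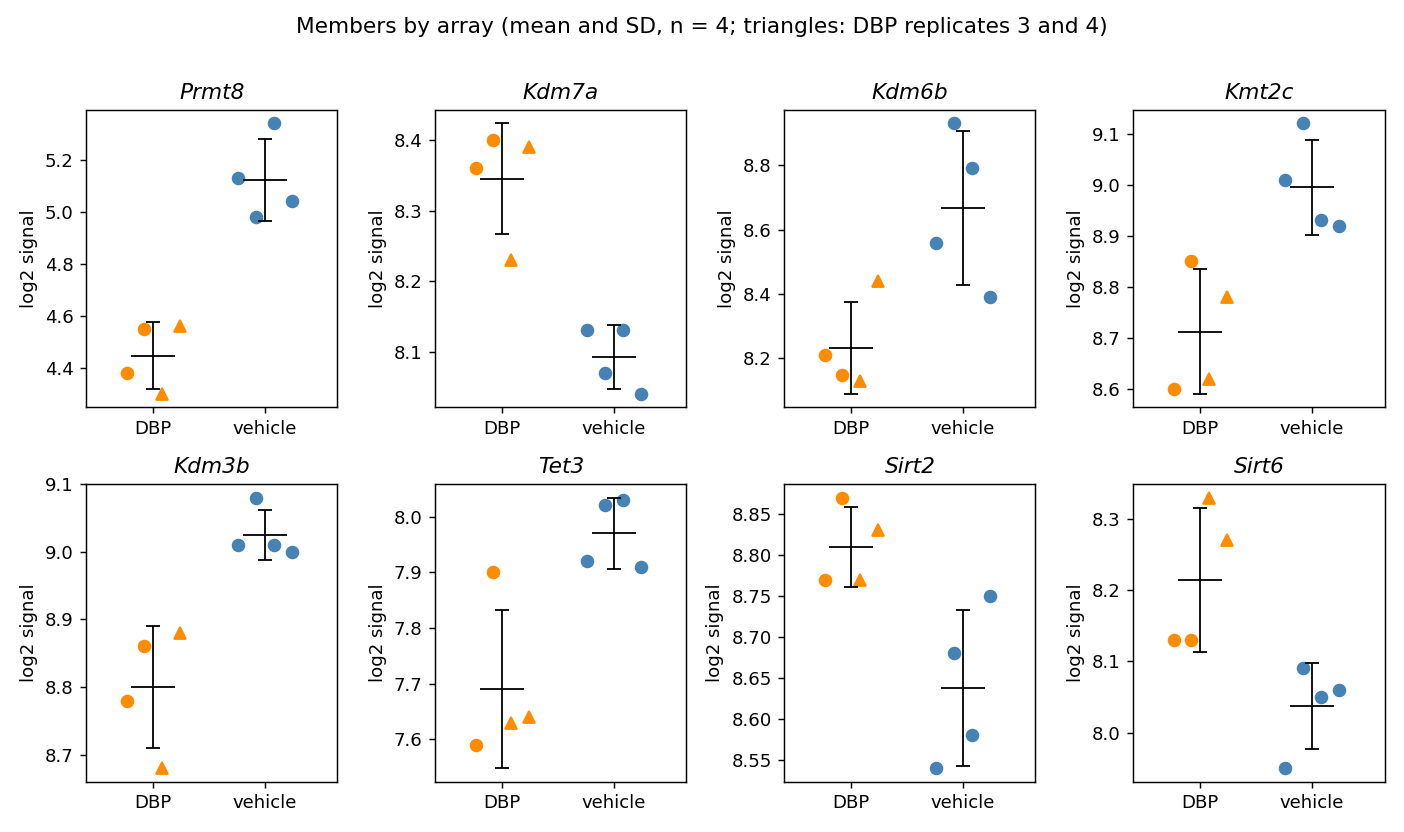
Log2 signal on each array for 8 members with small p-values, DBP on the left and vehicle on the right, with the mean and SD of 4 arrays and triangles for DBP replicates 3 and 4. In Prmt8 the DBP arrays run from 4.30 to 4.56 and the vehicle arrays from 4.98 to 5.34, while in Kdm6b the groups overlap.

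Among the 8 lysine methyltransferases none passed the test. By the brightest probe set all 8 values were below 0, with a median of -0.14. Of all genes 42.7% were below 0, and of genes brighter than the median probe set, as these 8 are, 52.3%. The arrays were uneven: the median difference of these methyltransferases from the vehicle mean was -0.27, -0.025 and -0.27 in DBP replicates 1 to 3. In DBP replicate 4 it was level with the vehicle mean. Kmt2c, a subunit of COMPASS-like complexes that methylates histone H3 at enhancers, had signals of 8.60, 8.85, 8.62 and 8.78 in DBP samples and 9.01, 9.12, 8.93 and 8.92 in vehicle samples. The groups did not overlap, and the change was -0.28 (SE 0.0758, interval -0.45 to -0.11, limma adjusted p = 0.111). A second, dimmer probe set for Kmt2c gave 6.09, 5.68, 6.43 and 6.75 in DBP samples and 6.98, 7.22, 7.49 and 6.93 in vehicle samples. It too was lower in every DBP array, by more (-0.92, SE 0.206, limma adjusted p = 0.0703), and with the gene taken as an average of the probe sets Kmt2c passed the test (-0.60, adjusted p = 0.0308).

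Kmt2e, a relative of these enzymes, had 9.90, 10.17, 10.01 and 10.07 in DBP samples and 10.19, 10.20, 10.21 and 10.28 in vehicle samples. The vehicle arrays were nearly level and lay above each DBP array, with a change of -0.18 (limma adjusted p = 0.202). Kmt5a, which adds a single methyl group to histone H4 in dividing cells, had 7.30, 7.52, 7.25 and 7.26 in DBP samples and 7.59, 7.31, 7.64 and 7.66 in vehicle samples. Here vehicle replicate 2 lay among the DBP arrays (change -0.22, limma adjusted p = 0.252), and a brighter Kmt5a probe set shared with another symbol was left out by the rule. Kmt2a and Kmt2b, which methylate histone H3 at promoters, had changes of -0.18 and -0.07, and Kmt2d, the other enhancer enzyme, -0.05. A second Kmt2d probe set had the opposite sign (0.19, limma adjusted p = 0.253), and the mean over both was 0.07. Kmt5b and Kmt5c, which add further methyl groups to histone H4, had -0.10 and -0.07.

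The core of Polycomb repressive complex 2 did not pass the test in any of its 4 genes. Ezh2, its catalytic subunit in dividing cells, had 8.83, 8.64, 8.70 and 8.65 in DBP samples and 8.86, 8.94, 8.80 and 8.82 in vehicle samples. DBP replicate 1 lay within the vehicle range and replicates 2, 3 and 4 below it (change -0.15, interval -0.29 to -0.01, limma adjusted p = 0.252). Eed, the subunit that reads the finished mark, had 9.20, 9.14, 9.15 and 9.09 in DBP samples and 9.17 on each vehicle array. Its change was -0.03 with an interval of -0.14 to 0.09, the narrowest of the members. Suz12, the scaffold subunit, had 7.92, 7.83, 8.00 and 7.66 in DBP samples and 8.06, 7.97, 7.91 and 7.90 in vehicle samples, which overlapped (change -0.11). Ezh1, the catalytic subunit of resting cells, had a change of -0.02.

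The DNA methylation machinery likewise gave 0 calls among Dnmt1, Dnmt3a, Dnmt3b and Uhrf1 and 0 among the 3 TET genes. Dnmt1, which copies methylation after replication, had 9.21, 9.36, 9.07 and 9.19 in DBP samples and 9.25, 9.36, 9.25 and 9.36 in vehicle samples. The ranges overlapped, with a change of -0.10 (interval -0.25 to 0.06). Uhrf1, which brings Dnmt1 to newly copied DNA, had 9.03, 9.14, 9.08 and 8.81 in DBP samples and 9.21, 9.16, 9.14 and 9.24 in vehicle samples. DBP replicate 2 reached the lowest vehicle level and replicate 4 was the lowest array (change -0.17, limma adjusted p = 0.261). Dnmt3b, a de novo methyltransferase, had 7.08, 7.41, 6.87 and 7.23 in DBP samples and 7.17, 7.13, 7.20 and 7.24 in vehicle samples, so the DBP arrays spread around the vehicle ones (change -0.04).

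All 3 TET genes had values below 0, with a median of -0.28, where 42.7% of all genes were below 0. Tet3 had 7.59, 7.90, 7.63 and 7.64 in DBP samples and 7.92, 8.02, 8.03 and 7.91 in vehicle samples. DBP replicates 1, 3 and 4 lay close together and replicate 2 just under the vehicle range. The change was -0.28 (interval -0.45 to -0.11, limma adjusted p = 0.115), and it passed without DBP replicate 2 (-0.35, adjusted p = 0.0286). The mean over the 3 Tet3 probe sets, which had -0.28, -0.28 and 0.11, was smaller and did not pass (-0.15, adjusted p = 0.231). Tet1 had 7.42, 7.64, 7.21 and 7.06 in DBP samples and 7.66, 7.65, 7.55 and 7.57 in vehicle samples. Replicates 3 and 4 were lowest and replicate 2 lay within the vehicle range (change -0.28, interval -0.52 to -0.03, limma adjusted p = 0.233). Tet2 had 7.91, 8.05, 7.78 and 7.97 in DBP samples and 8.05, 8.06, 8.15 and 7.98 in vehicle samples, with overlap (change -0.13, interval -0.29 to 0.02).

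Proliferation markers, which Uhrf1, Dnmt1, Ezh2 and Kmt5a commonly accompany in dividing cells, averaged 10.18, 10.14, 10.12 and 10.01 on the DBP arrays and 10.21 to 10.22 on the vehicle arrays. Of the 8 markers 6 had values below 0, where 42.7% of all genes did, and 2 above, and 0 passed the test. At an unadjusted p under 0.05, 3 were lower, Mcm2 (-0.24), Mcm6 (-0.22) and Mcm5 (-0.21), where 7.84% of all genes were. The median change of the markers was -0.004 for DBP replicates 1 and 2 and -0.21 for replicates 3 and 4. The part of proliferation in the values of Uhrf1, Dnmt1, Ezh2 and Kmt5a was not tested.

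Acetyltransferases numbered 9, with 0 calls and a median change of -0.03. Ep300, a coactivator that acetylates histones at enhancers, had 8.78, 9.01, 8.93 and 8.97 in DBP samples and 9.01, 9.08, 9.15 and 9.04 in vehicle samples. The groups met at 9.01, with a change of -0.15 (limma adjusted p = 0.271). Its paralogue Crebbp had 9.43, 9.68, 9.46 and 9.70 in DBP samples and 9.51, 9.68, 9.59 and 9.59 in vehicle samples. The DBP arrays lay on both sides of the vehicle ones (change -0.03). Kat2a and Kat2b, the GCN5 and PCAF enzymes of the SAGA and ATAC complexes, had 0.07 and -0.11, and Kat5, the catalytic subunit of the TIP60 complex, 0.03. Kat6a, Kat6b, Kat7 and Kat14 had values between -0.07 and -0.01.

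The 10 zinc-dependent deacetylases divided evenly, with 5 values below 0, 5 above and 0 calls. Hdac1 and Hdac2 are the catalytic subunits of the Sin3, NuRD and CoREST corepressors. Hdac2 had 11.03, 11.02, 11.11 and 10.85 in DBP samples and 11.03, 11.10, 11.07 and 11.09 in vehicle samples, which overlapped (change -0.07). Hdac1 had 9.62, 9.54, 9.20 and 9.23 in DBP samples and 9.52, 9.33, 9.51 and 9.47 in vehicle samples. DBP replicates 1 and 2 lay above every vehicle array and replicates 3 and 4 below every one, and the mean change was -0.06. A second Hdac1 probe set read 9.16, 9.22, 9.10 and 9.04 in DBP samples and 9.07, 9.12, 9.10 and 9.14 in vehicle samples. There the pairs lay nearer to vehicle, at 0.08 and -0.04.

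Hdac4, Hdac5 and Hdac7, class IIa deacetylases that shuttle between nucleus and cytoplasm, had values in different directions. Hdac4 had 6.81, 6.97, 7.02 and 7.05 in DBP samples and 7.04, 7.32, 7.19 and 7.24 in vehicle samples. Only DBP replicate 4 and vehicle replicate 1 crossed (change -0.24, limma adjusted p = 0.168). Hdac5 had 8.65, 8.50, 8.61 and 8.94 in DBP samples and 8.40, 8.46, 8.43 and 8.54 in vehicle samples. DBP replicate 2 lay within the vehicle range and replicates 1, 3 and 4 above it (change 0.22, limma adjusted p = 0.242). Hdac7 had a change of 0.13, Hdac6, a tubulin deacetylase, 0.10, Hdac11 0.14, Hdac3, the deacetylase of the NCoR complex, 0.02, Hdac10 -0.03 and Hdac8 -0.14.

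Sirtuins, the deacetylases that use NAD, numbered 6, with 3 values above 0 and 0 calls. Sirt2, a mainly cytoplasmic deacetylase, had 8.77, 8.87, 8.77 and 8.83 in DBP samples and 8.54, 8.68, 8.58 and 8.75 in vehicle samples. Sirt6, a chromatin-bound enzyme of DNA repair, had 8.13, 8.13, 8.33 and 8.27 in DBP samples and 7.95, 8.09, 8.05 and 8.06 in vehicle samples. In both genes each DBP array was above each vehicle array, by small margins, with changes of 0.17 (limma adjusted p = 0.204) and 0.18 (limma adjusted p = 0.210). The mitochondrial sirtuins had -0.19 (Sirt3), 0.17 (Sirt4) and -0.06 (Sirt5), and the nucleolar Sirt7 had -0.04. A second Sirt4 probe set had the opposite sign (-0.19, limma adjusted p = 0.238), and the mean over both was -0.0125.

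Some members differed more within the DBP group than between the groups, along the split in the spike-ins. This was no trait of members as a set. The median absolute difference between the changes of both pairs of DBP arrays was 0.0825 for members and 0.11 for all genes. Kdm4d, Dnmt3a, Tet1, Hdac1, Prmt6 and Hdac10 were picked for their large difference between the pairs. Their p-values by pair, here and below, therefore cannot test that difference. Kdm4d, a demethylase that in mice is best known from the testis, had 5.21, 5.20, 5.81 and 6.31 in DBP samples and 5.27, 5.27, 5.23 and 5.18 in vehicle samples. DBP replicates 1 and 2 were level with vehicle and replicates 3 and 4 well above it. The change was 0.82 (limma adjusted p = 0.00980) for replicates 3 and 4 alone and -0.03 (0.843) for replicates 1 and 2 alone. Dnmt3a had 7.69, 7.58, 8.46 and 8.39 in DBP samples and 7.87, 7.72, 7.77 and 7.60 in vehicle samples, again high in replicates 3 and 4 only. Its change was 0.69 (limma adjusted p = 0.00672) for that pair and -0.11 (0.590) for the other. A second Dnmt3a probe set showed no such split, with 7.27, 7.11, 7.33 and 7.35 in DBP samples and 7.35, 7.21, 7.56 and 7.47 in vehicle samples (change -0.13, limma adjusted p = 0.426).

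**Figure D3:**
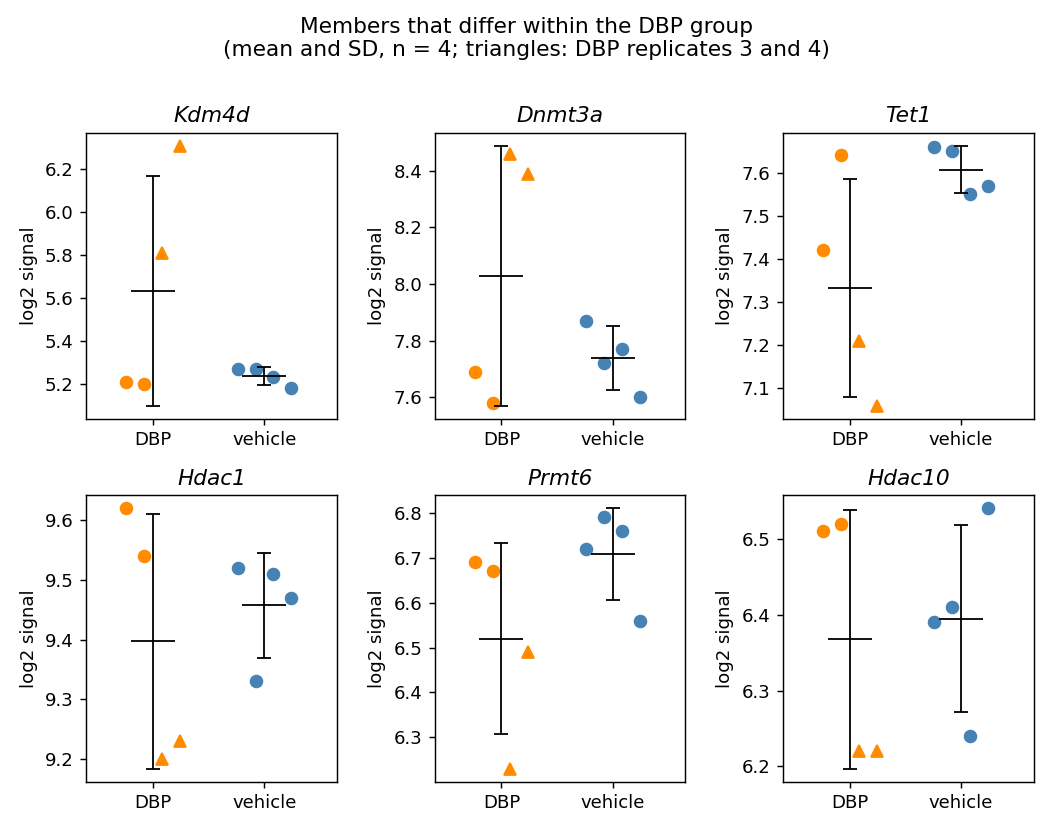
Log2 signal on each array for the 6 members with the largest difference between DBP replicates 1 and 2 and DBP replicates 3 and 4, with the mean and SD of 4 arrays per group. Triangles mark replicates 3 and 4, which lie above the vehicle arrays in Kdm4d and Dnmt3a and below the vehicle mean in Tet1, Hdac1, Prmt6 and Hdac10.

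Tet1 had a change of -0.47 for DBP replicates 3 and 4 (limma adjusted p = 0.0102) and -0.08 for replicates 1 and 2 (0.681). Hdac1 had -0.24 for replicates 3 and 4 (0.0615) and 0.12 for replicates 1 and 2 (0.461), so its sign differed between the pairs. Prmt6, a nuclear arginine methyltransferase, had -0.35 (0.0475) and -0.03 (0.903) in the same comparisons. Hdac10 had -0.175 for replicates 3 and 4 and 0.12 for replicates 1 and 2, while its next brightest probe set had -0.025 and -0.125. Against all 4 vehicle arrays, 10 members passed with DBP replicates 3 and 4 alone, 3 higher and 7 lower, where 12.8% of all genes passed, 7.43% higher and 5.37% lower. With DBP replicates 1 and 2 alone 2 members passed, Kdm7a (0.29, adjusted p = 0.0491) and Prmt8 (-0.66, 0.0219), where 1.67% of all genes passed, 0.95% higher and 0.717% lower. Prmt8 was thus called with either pair. The pairs gave opposite signs for 16 of 66 members and for 4614 of 14217 genes. Both comparisons share the vehicle arrays, and the pairs were set apart by their spike-ins, not by a label.

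Erythroid markers also moved with that split. They averaged 9.83 and 9.78 in DBP replicates 1 and 2 and 8.98 and 8.99 in replicates 3 and 4, against 8.97 to 9.36 in vehicle samples (4 of 6 markers measured). Sertoli cell markers (8 of 10 measured) averaged 9.60 to 9.75 in DBP samples and 9.49 to 9.57 in vehicle samples, higher on every DBP array. Leydig cell markers (8 of 8) averaged 10.38 to 10.58 in DBP samples and 10.56 to 10.65 in vehicle samples. Stroma markers averaged 11.52 to 11.83 in DBP samples and 11.82 to 11.89 in vehicle samples. Germ cell markers, of which 5 of 13 were measured, averaged 7.34 to 7.58 in DBP samples and 7.45 to 7.50 in vehicle samples. The part of spike-in signal and of cell makeup in the values of Kdm4d, Dnmt3a and Tet1 was not tested.

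For 24 members more than 1 probe set was available, and all probe sets of a gene had the same sign for 9 of them. Kmt2e was negative in all 5 of its probe sets, from -0.34 to -0.11. Ezh2 was negative in 3 of 3, Hdac10 in 4 of 4, and Hdac5 was positive in both. Others were not uniform: Kat6a had -0.01 for its brightest probe set, -0.48 for the second (limma adjusted p = 0.127) and 0.15 for the third. Kdm5a had -0.08 for the brightest and -0.45 for another (0.242), which read 7.75, 8.01, 7.33 and 6.96 in DBP samples and averaged 7.96 in vehicle samples. That second probe set was low in DBP replicates 3 and 4 (-0.81) and not in replicates 1 and 2 (-0.08), while the third had 0.23 for replicates 3 and 4 and -0.50 for replicates 1 and 2. A dim Crebbp probe set had -0.31 (0.0759) against -0.03 for the brightest. The RefSeq table names pseudogenes for Hdac1 (18), Dnmt3a (3), Dnmt3b (2), Kmt5a (2), Hdac2, Kat2b and Kmt5c (1 each), whose transcripts may share probes with these genes.

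**Figure D4:**
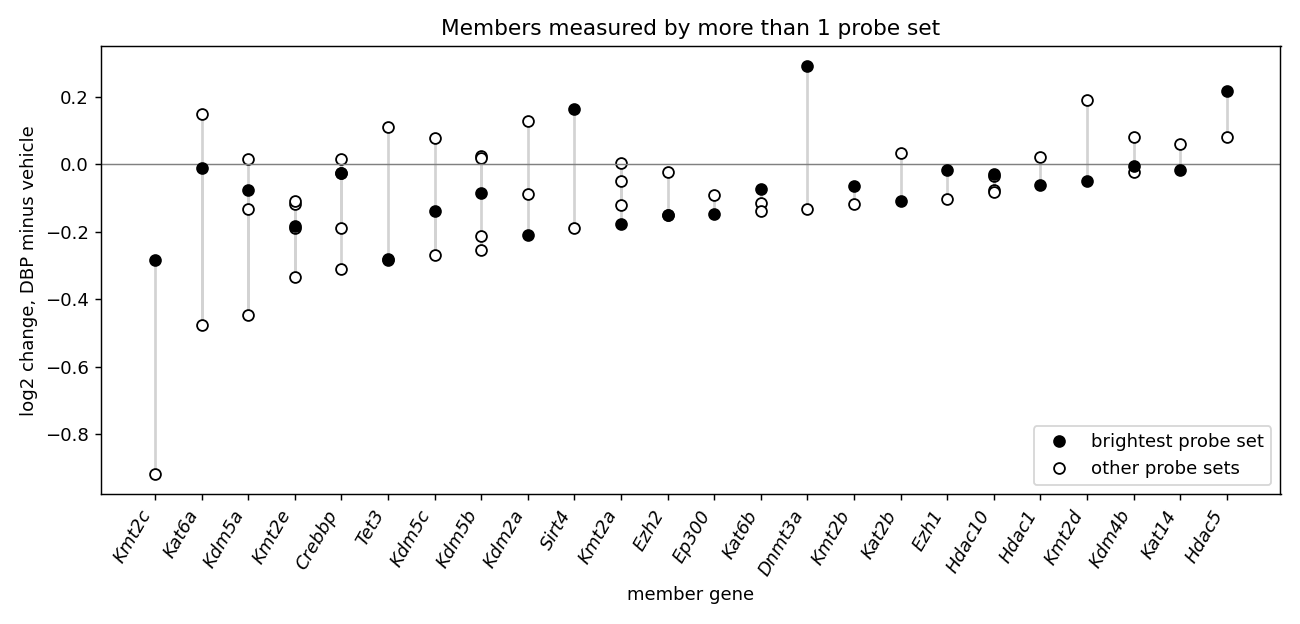
Log2 change, DBP minus vehicle, of each probe set for the 24 members that have more than 1, with filled points for the brightest probe set, which represents the gene, and open points for the others. Kmt2c reaches -0.92 in its dimmer probe set, and Dnmt3a has its probe sets on opposite sides of 0.

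Partners of these enzymes were read from 6 lists of complex subunits and related genes. Of their genes 1 passed the test, where 1.22% of all genes did. The partner that passed was Rcor1, the CoREST scaffold that joins Kdm1a to Hdac1 and Hdac2. It belonged to a list of COMPASS and demethylase partners with 23 genes measured. Rcor1 had 6.85, 6.65, 6.58 and 6.88 in DBP samples and 7.19, 7.28, 7.67 and 7.28 in vehicle samples. All DBP arrays were below all vehicle arrays, and Rcor1 fell by 0.62 on the log2 scale (SE 0.110, limma adjusted p = 0.0298). The call was lost when DBP replicate 1 or 3 or any 1 vehicle array was left out (adjusted p = 0.0504 to 0.0829) and when both Rcor1 probe sets were averaged (-0.44, adjusted p = 0.152). The dimmer probe set read 5.67, 5.75, 6.76 and 6.73 in DBP samples and 6.44, 6.48, 6.68 and 6.33 in vehicle samples, so its change of -0.26 averaged -0.77 for DBP replicates 1 and 2 and 0.26 for replicates 3 and 4. The brighter one did not split in this way, with -0.60 and -0.62. In the same list Paxip1 had -0.25 and Rcor3 0.23.

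In the other 5 partner lists 0 genes passed the test. Polycomb partners (27 measured) had a median change of -0.03, with 17 below 0 (63.0%, against 42.7% of all genes). Their smallest p-values belonged to Asxl2 (-0.31, limma adjusted p = 0.0551), Phc3 (-0.27, 0.0625) and Cbx8 (0.19, 0.161). Histone methyltransferases under other names (23 measured) had a median of -0.05, with 5 lower and 0 higher at an unadjusted p under 0.05, where 7.84% of all genes were lower and 11.3% higher, among them Suv39h2 (-0.19), Nsd3 (-0.28) and Setd2 (-0.19). Acetyltransferase complexes (33 measured) also had a median of -0.05, with 8 lower and 0 higher against that same background, led by Tada2b (-0.32), Msl1 (-0.25) and Gtf3c4 (-0.30). Deacetylase corepressors (25 measured) stayed nearest to 0, with a median of -0.01, 1 higher (Brms1, 0.24) and 0 lower. DNA methylation readers, partners and repair genes (26 measured) had a median of -0.06. Gnmt (0.27), Mat2a (-0.17) and Ahcy (0.14), all enzymes of the methyl donor cycle, led by p-value. These values are for the brightest probe sets. Dimmer ones reached the opposite sign for Mat2a (0.19), Msl1 (0.17), Nsd3 (0.09) and Brms1 (-0.045). Another Msl1 probe set was also above 0 (0.035), while the remaining probe sets of Mat2a, Msl1 and Nsd3 kept the sign.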

How the data were processed

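Each deposited value is a log2 signal of 1 probe set on 1 array, which the authors had normalized (RMA, per the submitters' processing notes, version not given in the sources used here). From 31099 probe sets, the 57 controls of the array were removed. Of the 31042 left, 20826 had 1 gene symbol in the platform's table, 436 several and 9780 none. Symbols of 65 of the 66 members were matched to a RefSeq gene ID, and no other genome data were used beyond RefSeq promoters. Groups were taken from the labels and compared with limma 3.58.1 (R 4.3.3), without a pairing term, because same-numbered DBP and vehicle samples did not deviate together (correlations 0.108, -0.0756, 0.0967 and -0.0205). Means, counts and figures were made with Python 3.11.15, pandas 2.3.3 and matplotlib 3.10.9. On simulated DBP and vehicle arrays of 31042 probe sets (seed 1), the same test found 95 of 100 changes of 1 log2 unit and 71 of 100 changes of 0.5, and made 6 false calls. The simulated noise was independent between arrays and had the same spread in both groups. In the data the median SD over all genes was 0.119 in DBP and 0.0656 in vehicle samples. The simulated counts may therefore not hold for these arrays.

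The members, the partner lists and the rules were chosen with earlier results of these data known. By rule every member could be named, and values by array were given for members past the threshold, the 16 with the smallest p-values and a set of DNA methylation, Polycomb, deacetylase and coactivator genes, 26 in all; partner genes were named if they passed or were among the 3 smallest p-values of a list. Alternatives were a filter on dim probe sets, other scaling, other forms of the test, the replicate number as a block, the spike-in signal or RNA integrity number as a term, subsets of the DBP arrays, the mean over probe sets, leaving out cross-matching probe sets and leaving out each array in turn.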

Additional observations from a re-analysis of the deposited data

Results flagged for a closer look

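In 6 of the 132 groups of 4 arrays examined (66 members, DBP and vehicle), 1 array lay far from the other three relative to the range of the group. That is 4.55% of groups, and chance flags about 1 in 20. In the DBP group, Tet3 had 7.90 in replicate 2 against 7.59 to 7.64 in the others, the array without which Tet3 passed the test. Kdm4c had 2.74 in DBP replicate 4 against 3.05 to 3.10, on a dim probe set. In the vehicle group, Kat2a had 7.52 in replicate 3 against 7.95 to 8.00, Kat6b had 8.75 in replicate 4 against 8.51 to 8.54, Kdm3b had 9.08 in replicate 2 against 9.00 to 9.01, and Sirt4 had 5.31 in replicate 2 against 5.48 to 5.51.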

How the results depend on the processing

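Prmt8 was lower in DBP samples under every alternative that tested it, with changes of -0.72 to -0.60. It passed under each of them (adjusted p = 0.00480 to 0.0464) except unmoderated t statistics (0.100), and the filter on dim probe sets left it untested, with Kdm7a then the 1 member called. The number of members called was 1 in the main analysis, 2 with quantile normalization, 2 with the mean over probe sets, 2 with DBP replicates 1 and 2 only, 10 with DBP replicates 3 and 4 only, and 1 to 2 when each array was left out in turn. With unmoderated t statistics it was 0. Over all probe sets 331 passed, against 74 with unmoderated t statistics, 577 with DBP replicates 1 and 2 only, 4129 with DBP replicates 3 and 4 only, and 82 (without vehicle replicate 3) to 606 (without DBP replicate 2) with 1 array left out. With the replicate block 175 passed and Prmt8 kept its call (0.0464). The block ended the call of Rcor1 (0.0798), which was also lost with unmoderated t statistics (0.150), the spike-in term (0.0711), DBP replicates 1 and 2 only (0.0574) and the RNA integrity number (0.0511). No call turned its direction. Of members named in the report, Dnmt3a, Kat2b, Kdm4d, Kdm5c, Kmt2c, Prmt6, Sirt6, Tet1 and Tet3 passed besides Prmt8 with DBP replicates 3 and 4 only. Causes of these differences were not tested. The deposited log2 values come without a background signal, so how far a dim probe set such as that of Prmt8 or Kdm4c lies above background is unknown.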
